A study of Bos taurus and Ovis aries and Capra hircus with 18 samples.

Results

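Gene expression in the brain of adult cattle was compared with that in the brain of adult sheep, with 3 libraries of each species, labelled A, B and C. These 6 libraries are part of a series of 18 that also holds goat brain and the muscle of all 3 species. RNA was taken from frozen tissue, selected with oligo(dT) beads and sequenced, and reads were counted per gene on the gene models of each species. All animals are labelled adult, and the groups carry no treatment. The sources used here give neither brain region, breed or sex nor whether the letters stand for separate animals, so p-values measure only the spread between these libraries, which may be technical. A brain sample of this kind pools all cell types of the dissected piece, and fewer cells of a type cannot be told apart from less RNA per cell.

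Cattle and sheep genes carry different identifiers. They were therefore paired by the lengths of their exons, which change little between related mammals, together with the order of genes along the chromosomes. This gave 14106 pairs, of which 12184 had enough reads to be tested. Counts were corrected for the summed exon length of the gene in its own species, and levels are given as length-corrected CPM, which are counts scaled by library size. Median exonic lengths were 2496 bases in the cattle models and 1686 in the sheep models, so weight is given to the 4162 tested genes whose lengths lay within 1.2 times of each other. A gene was called different at an adjusted p below 0.05 in edgeR's quasi-likelihood test and at least a 2-fold difference. Log2 differences are cattle minus sheep with the standard error of the fit, from 3 libraries of each species.

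Brain tissue is made of neurons that signal through vesicle release and ligand-gated receptors, and of glia that supply, insulate and guard them. Oligodendrocytes wrap axons in myelin, a membrane rich in cholesterol. Because lipoproteins of the blood do not pass the blood-brain barrier, brain cells make their own cholesterol from acetyl-CoA through the mevalonate and sterol steps, and the genes of that pathway are switched on together by the SREBP2 transcription factor. Cattle and sheep are both bovid ruminants, and most of their genes have a single partner in the other species.

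The cattle libraries held 42891698 to 58514630 counts and the sheep libraries 25162316 to 30432512. Genes of the mitochondrial genome took 22.9% to 26.6% of counts in cattle brain and 2.67% to 4.95% in sheep brain, and only paired nuclear genes were compared. The part of this share in the differences was not tested. Neuronal genes were abundant in all 6 libraries: the 9 tested pan-neuronal markers summed to 7357, 6689 and 7306 CPM in cattle A, B and C and to 7982, 6624 and 6558 in sheep. The sum hides changes of single markers in sheep C. There UCHL1, ENO2 and NEFH were above sheep A and B, and the other markers below. UCHL1 had 1238, 1025.5 and 2934 CPM in sheep A, B and C, and SYT1 had 1215, 1028 and 63.0 CPM. The 7 tested skeletal muscle markers summed to 41.4 to 109.4 CPM over the 6 libraries, and no pituitary or red blood cell marker passed the filter on low counts. Sheep brain C stood apart. Its rank correlation with the other sheep libraries was 0.799 and 0.800, against 0.990 between sheep A and B and 0.978 to 0.995 among cattle, over 12184 genes that share each library's depth. In sheep C, 23.4% of genes were more than 2-fold above the mean of sheep A and B and 28.5% more than 2-fold below it. Between sheep A and B, 1.96% of genes differed by more than 2-fold. Results are therefore given with and without sheep C.

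With all 6 libraries, 565 genes were higher in cattle brain, which is 4.64% of the 12184 tested, and 1058 were higher in sheep brain, which is 8.68%. Among the 4162 genes of similar length the counts were 172 (4.13%) and 242 (5.81%), or 9.95% in either direction. The median log2 difference over all tested genes was -0.02. Without sheep C, 1195 genes (9.7% of 12323) were called higher in cattle and 1641 (13.3%) higher in sheep, 23.0% in all, and for genes of similar length 417 (9.89%) and 387 (9.17%) of 4218. Of the genes called with all libraries, 554 of the 565 and 1042 of the 1058 were also called without sheep C. Leaving out any 1 cattle library left 114 to 127 genes higher in cattle and 139 to 168 higher in sheep. Without sheep A the counts were 288 and 763, and without sheep B 223 and 557. Calls also varied with the length of the gene models. Where the cattle model was over 1.2 times longer, 286 of 7198 genes were higher in cattle and 720 in sheep with a median of -0.12, and where the sheep model was longer, 107 of 824 were higher in cattle and 96 in sheep with a median of 0.36. The part of the gene models in single differences was not tested.

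**Figure D1:**
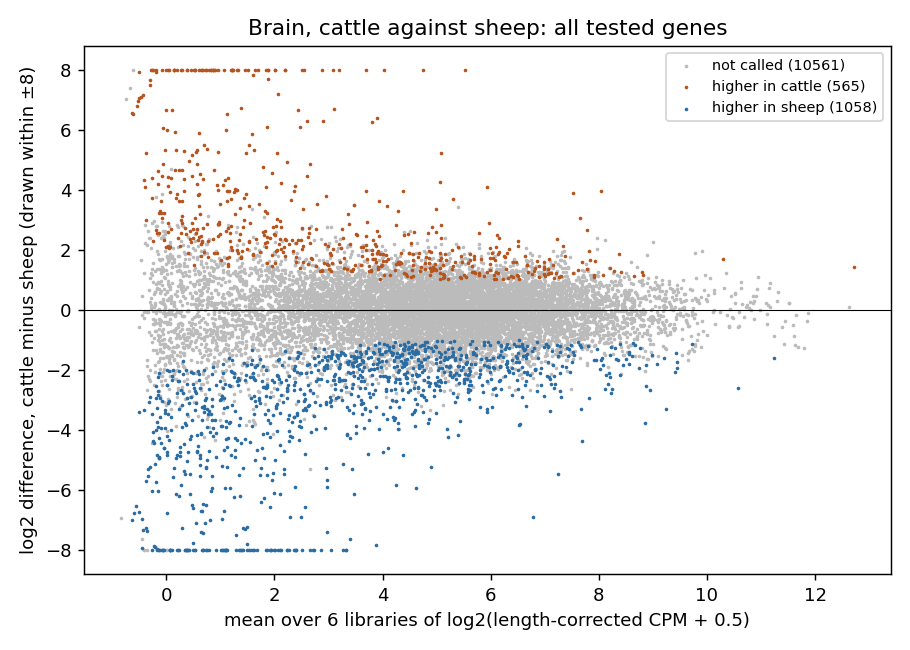
Each point is 1 of the 12184 tested genes, with its mean level over the 6 brain libraries on the x axis (log2 of length-corrected CPM plus 0.5) and its log2 difference, cattle minus sheep, on the y axis, drawn within ±8. The 565 genes called higher in cattle lie above 0 and the 1058 called higher in sheep below it, with genes beyond the drawn range set at its edge.

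The genes of similar length with the largest differences were taken 12 in each direction. Each had a mean log2 level of at least 5, or 32 CPM, in the higher species, 3 libraries of 1 species all beyond the 3 of the other, and a call with and without sheep C. Groups did not overlap for 5969 of 12184 tested genes (49.0%), so many genes meet this condition alone. All 565 genes called in cattle and all 1058 called in sheep meet it. Separation of the groups, here and below, therefore adds nothing to a call with all 6 libraries. Those higher in cattle were AVPI1, UBQLN2, ENTREP1, MYOM1, SNX22, AFF1, MCC, METTL17, ME2, CDK8, GABRA3 and TMEM35A. Those higher in sheep were RIPPLY1, MRPL24, MAP3K15, RPL19, DNMT3B, CILP2, BST1, PIDD1, MYBPC2, CDT1, SIGIRR and SLC26A10. Of the 24, 11 kept their call whichever single library was left out: AVPI1, UBQLN2, ENTREP1, MYOM1, SNX22 and METTL17 on the cattle side, and RIPPLY1, MAP3K15, RPL19, DNMT3B and CDT1 on the sheep side. With any 1 cattle library left out, 12 others lost it, and MRPL24 lost it without cattle C (adjusted p = 0.0519). AFF1 and GABRA3 also lost it without sheep A or B, and SLC26A10 without sheep A. None of the 24 changed direction.

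**Figure D2:**
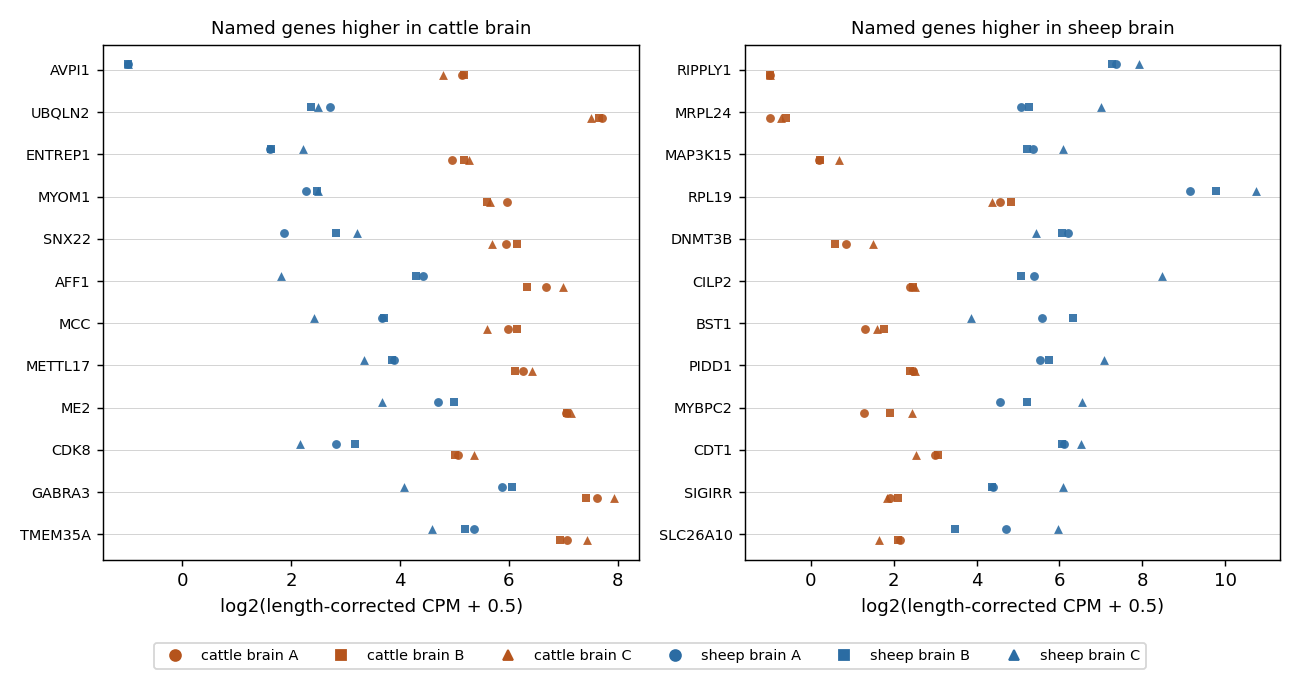
Level of the 24 named genes in each brain library, on the x axis as log2 of length-corrected CPM plus 0.5, with cattle in orange, sheep in blue and the marker shape giving the library letter. The 12 genes of the left panel lie higher in all 3 cattle libraries and the 12 of the right panel higher in all 3 sheep libraries. Sheep C (blue triangle) often sits away from sheep A and B.

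Ubiquilin 2, encoded by UBQLN2 and known for carrying ubiquitinated proteins to the proteasome, was counted at 209.95, 202 and 183 CPM in cattle A, B and C and at 6.08, 4.66 and 5.15 CPM in sheep A, B and C. The sheep libraries, C included, lay close together and far below every cattle library. The difference was 5.23 ± 0.30 on the log2 scale, or 37.4-fold (adjusted p = 0.000991), and 5.2 without sheep C. UBQLN2 lies on cattle chromosome X, from 93549709 to 93551583 on the plus strand (ARS-UCD1.2). It has near relatives in the genome, its pairing rests on 1 shared exon length between paired neighbours, and the counting of reads matching several places is not stated.

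AVPI1, a small gene named for its induction by arginine vasopressin, had 34.9, 35.5 and 27.2 CPM in cattle and no read in any sheep brain library. Against a floor of 3 counts over the sheep group, the level was at least 797-fold higher in cattle. The same gene had 0 reads in all 3 sheep muscle libraries and was listed at 0 in all 3 goat brain libraries, while cattle muscle held 151 CPM. Its pair rests on 1 shared exon length. AVPI1 lies on cattle chromosome 26, from 18846873 to 18854967 on the minus strand.

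ENTREP1, a membrane protein of endosomes that recruits ubiquitin ligases, measured 30.7, 35.9 and 38.0 CPM in cattle and 2.56, 2.59 and 4.14 CPM in sheep. Its log2 difference was 3.49 ± 0.35 (adjusted p = 0.00326), with 7 exon lengths shared between the models. SNX22, a member of the sorting nexin family of phosphoinositide-binding proteins, stood at 61.5, 70.3 and 50.9 CPM in cattle against 3.18, 6.63 and 8.80 CPM in sheep, a difference of 3.29 ± 0.45 (adjusted p = 0.00872). The exonic lengths of SNX22 were nearly the same, at 1250 and 1255 bases. Neither gene had overlapping groups, and both differences were larger without sheep C, at 3.75 and 3.62.

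MYOM1 encodes myomesin, a protein that crosslinks thick filaments at the M-band of striated muscle. In brain it was read at 62.0, 48.3 and 49.8 CPM in cattle and 4.36, 5.10 and 5.17 CPM in sheep (3.45 ± 0.29, adjusted p = 0.00258). All 3 cattle libraries were about equally high, and the 7 markers of skeletal muscle as a list had 0 members called, with a median of 0.19 (1.38 without sheep C). The part of muscle RNA in the MYOM1 difference was not tested. METTL17, needed for assembly of the mitochondrial ribosome, had 76.3, 69.3 and 85.9 CPM in cattle and 14.4, 14.1 and 9.61 CPM in sheep (2.60 ± 0.31, adjusted p = 0.00546).

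The other cattle-high genes had folds of 4.27 to 7.19. ME2, the mitochondrial malic enzyme that turns malate into pyruvate, averaged 136 ± 5.01 CPM (SD, n = 3) in cattle and 23.1 ± 9.85 CPM (SD, n = 3) in sheep. CDK8, the kinase of the Mediator complex, averaged 35.1 ± 4.69 against 6.37 ± 2.28 CPM. AFF1, a scaffold of the super elongation complex, averaged 103 ± 23.6 against 14.3 ± 9.85 CPM, with sheep C lowest at 3.01. For MCC, a regulator of Wnt signalling, the means were 60.5 ± 11.4 and 9.87 ± 4.36 CPM. TMEM35A, a chaperone in the assembly of nicotinic acetylcholine receptors, had 143 ± 26.1 and 33.5 ± 8.82 CPM, and its pair rests on 1 shared exon length. GABRA3 is described with the receptors. Sheep C was the lowest sheep library for AFF1, MCC, METTL17, ME2, CDK8, GABRA3 and TMEM35A, and without it their log2 differences were smaller, from 1.71 for GABRA3 to 2.43 for METTL17.

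On the sheep side, DNMT3B, a de novo DNA methyltransferase, had 72.7, 66.8 and 42.4 CPM in sheep A, B and C and 1.31, 0.997 and 2.33 CPM in cattle. The log2 difference was -5.29 ± 0.49 (adjusted p = 0.00313), and it was -5.50 without sheep C, which was the lowest of the sheep libraries. The 2 models share 18 exon lengths, and the gene lies on cattle chromosome 13, from 62142537 to 62176363 on the plus strand. CDT1, which loads the replicative helicase onto DNA, had 68.0, 65.7 and 90.7 CPM in sheep and 7.45, 7.84 and 5.26 CPM in cattle (-3.45 ± 0.33, adjusted p = 0.00313). MAP3K15, an apoptosis signal-regulating kinase, had 40.6, 36.6 and 67.7 CPM in sheep and 0.648, 0.669 and 1.11 CPM in cattle (-5.90 ± 0.46, adjusted p = 0.00248). For all of DNMT3B, CDT1 and MAP3K15 the groups were well apart.

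RIPPLY1, a transcriptional repressor known from somite segmentation, had no read in cattle brain and 164, 155 and 240.3 CPM in sheep, at least 5088-fold higher in sheep against a floor of 3 counts over the cattle group. Its pair, on cattle chromosome X, from 55443790 to 55446987 on the minus strand, rests on 1 shared exon length. MRPL24, a protein of the mitochondrial ribosome, had 7 counts in all over the 3 cattle libraries and 33.0, 38.1 and 128 CPM in sheep (-9.57 ± 1.12, adjusted p = 0.00579). Goat brain held 55.7, 81.4 and 69.9 CPM of MRPL24. Muscle showed the same direction for both genes. MRPL24 was at 0.103 CPM in cattle muscle and 45.7 CPM in sheep muscle, a log2 difference of -8.79 ± 0.91. RIPPLY1 was at 0.0319 CPM in cattle muscle and 55.8 CPM in sheep muscle.

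The remaining sheep-high genes were highest in sheep C, except for BST1. PIDD1, the scaffold of a caspase-2 activating complex, had 45.4, 52.9 and 134 CPM in sheep and 4.98, 4.73 and 5.16 CPM in cattle. CILP2, a cartilage matrix protein, had 41.3, 33.2 and 353 CPM in sheep and 4.76, 5.01 and 5.23 CPM in cattle, and its log2 difference of -4.83 ± 1.0503 (adjusted p = 0.0312) came to -2.91 without sheep C (adjusted p = 6.92e-05). MYBPC2, the fast muscle form of myosin-binding protein C, had 23.1, 36.5 and 93.4 CPM in sheep and 1.92, 3.24 and 4.94 CPM in cattle. Sheep C was the highest library for all 3. SIGIRR, an inhibitory receptor of interleukin-1 signalling, went from -3.42 to -2.60 without sheep C, and SLC26A10, of an anion transporter family, from -3.24 to -2.39. BST1, a surface enzyme of the CD38 family, had 47.1, 79.5 and 14.0 CPM in sheep and 1.99, 2.88 and 2.50 CPM in cattle, with sheep C lowest (-4.25 ± 0.68, -4.70 without it).

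Of the 18 genes of cholesterol synthesis tested, 5 were called higher in cattle and 0 in sheep, against 4.64% and 8.68% of all genes. On the list 15 had a positive log2 difference, and the median was 1.11 against -0.02 over all genes. Without sheep C, 7 were called in cattle and 0 in sheep, with a median of 0.78. With any 1 cattle library left out 0 were called, with medians of 1.03 to 1.15, and 4 and 2 were called without sheep A and sheep B. Summed over the list, levels were 3459, 3424 and 3795 CPM in cattle A, B and C and 1915, 1693 and 1258 CPM in sheep, so every cattle library was above every sheep library.

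Squalene epoxidase, encoded by SQLE and a rate-controlling step on the way to sterols, had 358, 359 and 371 CPM in cattle and 146, 122 and 91.5 CPM in sheep (1.59 ± 0.27, adjusted p = 0.0158). DHCR7, which makes cholesterol from its immediate precursor, had 219, 226 and 175 CPM in cattle and 55.8, 47.4 and 23.5 CPM in sheep (2.29 ± 0.39, adjusted p = 0.016). LSS, lanosterol synthase, had 113, 118 and 129.8 CPM and 43.1, 43.6 and 28.0 CPM (1.65 ± 0.29, adjusted p = 0.0163). In all 3 the groups were apart, with sheep C the lowest library. The isomerase IDI1 had 177, 189 and 231 CPM in cattle and 85.6, 81.7 and 49.7 CPM in sheep (1.46 ± 0.31, adjusted p = 0.0284). In IDI1 too every cattle library was above every sheep library. FDPS, MVD and MVK, with log2 differences of -0.78, -0.44 and -0.37, were the 3 below 0 and were not called.

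SQLE, DHCR7, LSS and IDI1 had exonic lengths 1.27 to 2 times apart, and only 2 of the 18, CYP51A1 and MVD, lay within 1.2 times, with 0 called. The cattle model was the longer for SQLE, DHCR7 and LSS and the shorter for IDI1. The same gene models were read in muscle. In muscle, SQLE differed by -0.64 ± 0.33, DHCR7 by 0.75 ± 0.30, LSS by 0.14 ± 0.23 and IDI1 by 0.06 ± 0.24, and none of these was called. The interaction of species and tissue passed the threshold for each of these enzymes: SQLE 2.21 ± 0.47 (adjusted p = 0.00955), DHCR7 1.52 ± 0.43 (0.0302), LSS 1.49 ± 0.32 (0.00945) and IDI1 1.38 ± 0.34 (0.0188). Over all genes with at least 1 CPM in muscle it passed for 18.1% of 10398. They were picked for this test because they were called in brain, so the share is no measure of the list. Their interactions also passed the threshold without sheep C. Goat brain, scaled with the same cattle and sheep libraries, held 118 CPM of SQLE, 56.5 of DHCR7 and 53.7 of LSS on average.

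**Figure D3:**
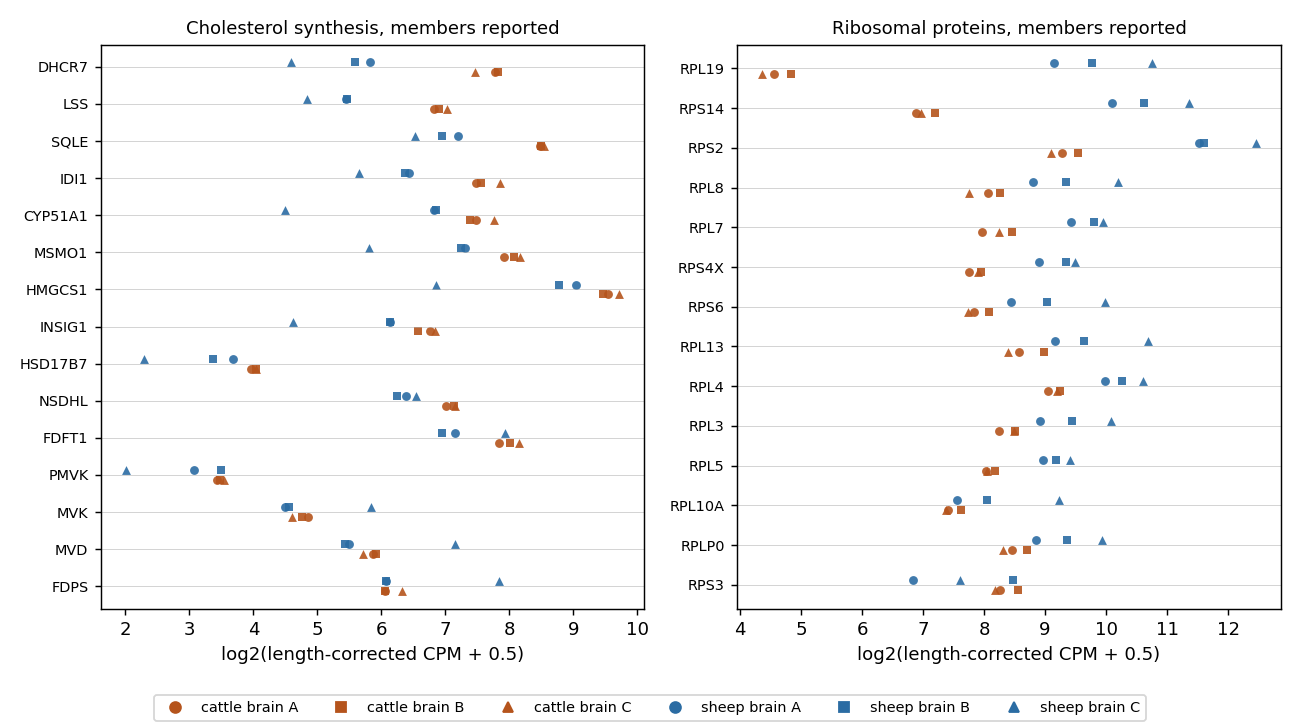
Level of 15 cholesterol synthesis genes (left) and 14 ribosomal protein genes (right) in each brain library, on the x axis as log2 of length-corrected CPM plus 0.5, with cattle in orange, sheep in blue and the marker shape giving the library letter. Genes are ordered by their difference, and 12 of the 15 on the left lie higher in cattle while 13 of the 14 on the right lie higher in sheep.

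Of 15 ribosomal protein genes tested, 8 were called higher in sheep and 0 in cattle, against 8.68% and 4.64% of all genes, with a median of -1.40. Without sheep C 7 were called, with RPL8 added and RPL4 and RPL5 lost, and a median of -1.0. Without 1 cattle library 2 or 3 were called, without sheep A 7, and without sheep B 3. Summed levels were 4394, 5314 and 4326 CPM in cattle and 10670, 13980 and 22580 CPM in sheep A, B and C, with sheep C highest. RPL19, a protein of the large subunit, had 23.1, 28.0 and 20.05 CPM in cattle and 566, 876 and 1719 CPM in sheep (-5.47 ± 0.53, adjusted p = 0.00326). RPS14 of the small subunit had 117, 146 and 124 and 1091, 1577 and 2624 CPM (-3.77 ± 0.40, adjusted p = 0.00461), on models 3.44 times apart in length. Both kept the call whichever library was left out. RPL4, at 528, 604 and 584 against 1014, 1227 and 1549.8 CPM, is of similar length in both models and was at -1.14 ± 0.26 (adjusted p = 0.0342), and under 2-fold without sheep C (-0.98). RPS2, RPL7, RPS4X and RPL5 were also called, with differences of -2.61 to -1.11. RPS3 alone had a positive difference, at 0.54 ± 0.43 (adjusted p = 0.43).

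Ribosomal protein genes have many processed copies in mammalian genomes, and the counting of reads matching several places is not stated, so single folds are uncertain. In muscle, where the same models were read, RPL19 and RPS14 were again higher in sheep (-4.17 ± 0.38 and -1.94 ± 0.29), RPL7 differed by -0.14 ± 0.22 and RPS4X by 0.20 ± 0.21, and RPL5 by 0.66 ± 0.20. The interaction of species and tissue passed the threshold for 5 of the 8 called members: RPL4, RPL5, RPL7, RPS14 and RPS4X, at -1.11 ± 0.32, -1.79 ± 0.29, -1.39 ± 0.31, -1.85 ± 0.41 and -1.62 ± 0.30. All 5 also passed it without sheep C. Over all genes with at least 1 CPM in muscle it passed for 18.1%. The 8 were picked because they were called in brain, so the count is no measure of the list. EEF1A1, an elongation factor with many copies, was another abundant gene called higher in sheep, at 4504, 4955 and 3294 CPM against 1238, 1509.6 and 1428 CPM in cattle (-1.61 ± 0.27, adjusted p = 0.0141). TPI1, triosephosphate isomerase of glycolysis, had 10.2, 10.7 and 10.4 CPM in cattle and 769, 809.6 and 2118 CPM in sheep (-6.88 ± 0.56, adjusted p = 0.00258). Its difference in muscle was -7.02 ± 0.48, of the same size, with 28.3 CPM in cattle muscle. The other 14 glycolysis genes tested were not called, and the 15 had a median of -0.23. Neither EEF1A1 nor TPI1 is of similar length in both models.

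**Figure D4:**
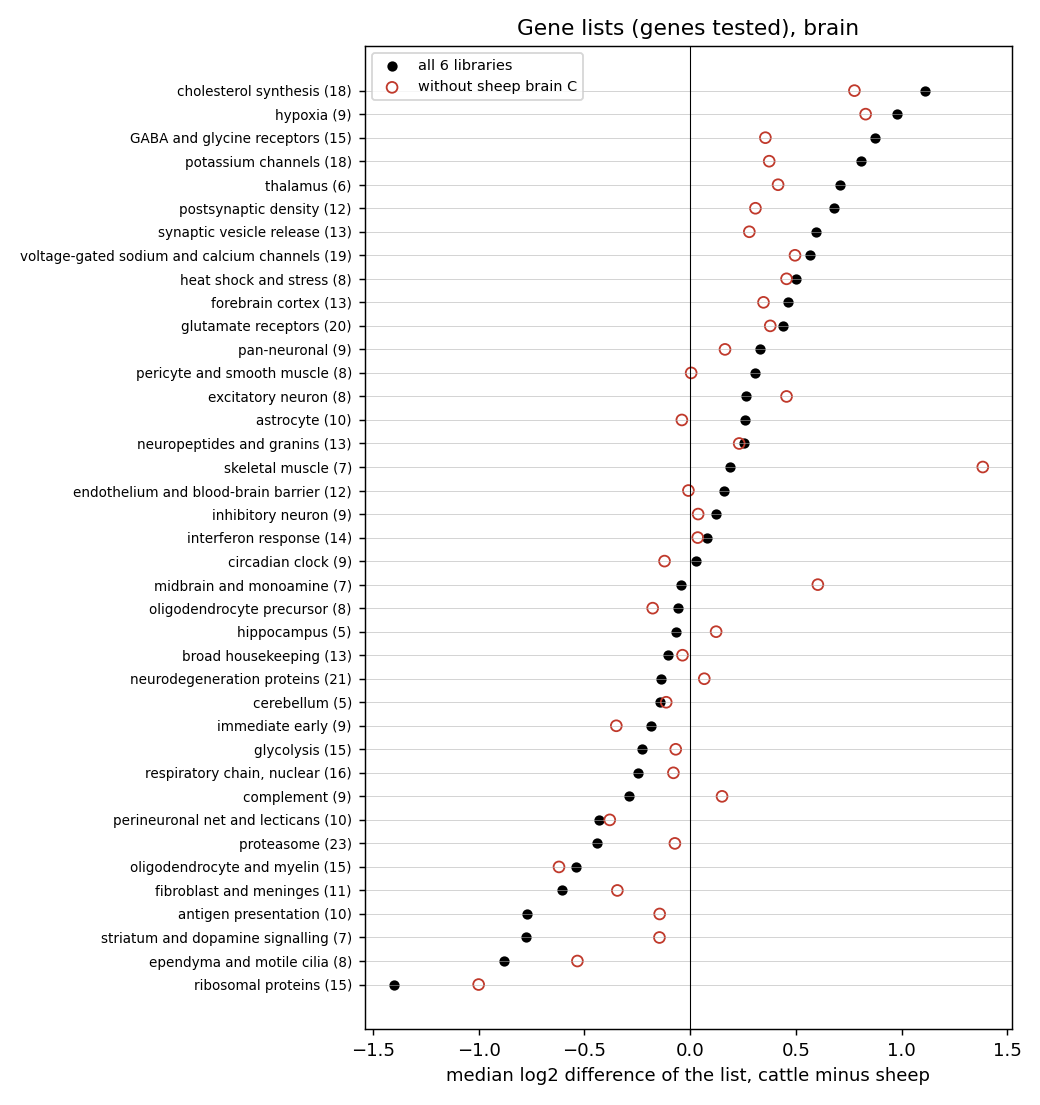
Median log2 difference, cattle minus sheep, of each gene list with at least 5 tested members, with the number of genes tested in parentheses. Filled points use all 6 libraries and open red circles leave out sheep brain C. With all 6 libraries cholesterol synthesis lies furthest on the cattle side (1.11) and ribosomal proteins furthest on the sheep side (-1.40). Without sheep C skeletal muscle (1.38) and hypoxia (0.83) lie beyond cholesterol synthesis (0.78) on the cattle side, and ribosomal proteins (-1.0) remain lowest.

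Of 15 receptor genes for the inhibitory transmitters GABA and glycine, 14 had a positive difference and 2 were called higher in cattle and 0 in sheep, against 4.64% and 8.68% of all genes, with a median of 0.88. Without sheep C the median was 0.36, with 4 called in cattle and 1 in sheep, against 9.7% and 13.3% of all genes. GABRA3, the alpha-3 subunit of the GABA-A receptor, is of similar length in both models. It had 197, 172 and 246 CPM in cattle and 57.9, 66.5 and 16.3 CPM in sheep (2.13 ± 0.54, adjusted p = 0.047), and without sheep C 1.71 (adjusted p = 0.000658). GABRA5, the alpha-5 subunit found mostly outside synapses, had 154, 142 and 282 CPM in cattle and 55.9, 73.4 and 35.3 CPM in sheep (1.81 ± 0.42, adjusted p = 0.0363, and 1.57 without sheep C). In both genes all cattle libraries were above all sheep libraries. Both lost the call when any 1 library other than sheep C was left out.

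GABBR2, which carries the G-protein signal of the GABA-B receptor, was called in cattle only without sheep C (1.14, adjusted p = 0.000804). In sheep C it stood at 21.3 CPM, against 150.3 CPM in sheep A. The delta subunit GABRD was the reverse, at 127, 93.3 and 383 CPM in sheep and 53.0, 49.0 and 53.3 CPM in cattle. It was called in sheep only without sheep C (-1.10, adjusted p = 0.00175), its models being 2.37 times apart in length.

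Excitatory and postsynaptic genes are set beside all genes, of which 13.3% were called with all libraries and 23.0% without sheep C. Of 12 postsynaptic density genes 1 was called, in cattle. Of 20 glutamate receptor genes 0 were called in either direction (median 0.44), and without sheep C GRIA4 and GRM2 were higher in cattle (1.07 and 1.5) and GRM3 in sheep (-1.10). The sign of GRIA4 turned without the length correction, to -0.069. NEUROD2, a transcription factor of cortical excitatory neurons, had 113, 109 and 102 CPM in cattle but 0.585, 1.56 and 2.03 CPM in sheep (6.27 ± 0.53, adjusted p = 0.00264). The other 7 excitatory neuron markers tested were not called (median of the 8 0.26). The NEUROD2 models were 2.32 times apart in length, and their pairing rests on 1 shared exon length. Vesicle release genes had 0 called of 13, voltage-gated sodium and calcium channels 0 of 19, and pan-neuronal markers 0 of 9. With 13.3% of all genes called, low counts in lists this short are not read as a result.

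Of 18 potassium channel genes 1 was called, KCNC4, a fast delayed rectifier, which was higher in sheep (-1.30 ± 0.30, adjusted p = 0.0362, models 3.63 times apart). Without the length correction its sign turned, to 0.14. Without sheep C 4 members were called higher in cattle, KCNA4 and KCND3 among them, and 1 in sheep, against 9.7% and 13.3% of all genes. Among neuropeptide genes PCSK2, the prohormone convertase of dense-core vesicles, was higher in cattle (185, 209.8 and 216 against 85.2, 80.1 and 69.9 CPM, 1.38 ± 0.24, adjusted p = 0.0174). Its models were more than 1.2 times apart in length. Of inhibitory neuron markers, the interneuron transcription factor LHX6 was higher in cattle (1.49 ± 0.37, adjusted p = 0.0454), with 41.6, 42.8 and 35.3 CPM against 15.7, 18.8 and 8.21. The LHX6 models were 1.91 times apart in length. CALB1, a calcium buffer, was higher in sheep at levels under 1 CPM in all 6 libraries, on models 3.33 times apart in length.

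Oligodendrocyte and myelin genes differed in both directions. Of 15 tested, 1 was called higher in cattle and 3 in sheep, against 4.64% and 8.68% of all genes, with a median of -0.54 (-0.62 without sheep C). MOG, a glycoprotein of the outer myelin surface, had 32.8, 26.4 and 34.3 CPM in cattle and 169.8, 169.9 and 139 CPM in sheep (-2.36 ± 0.27, adjusted p = 0.00513), and was called whichever library was left out. OPALIN, a membrane protein of oligodendrocytes, and ASPA, the aspartoacylase that frees acetate for myelin lipids, were also higher in sheep (-2.32 ± 0.47 and -2.34 ± 0.41, adjusted p = 0.0255 and 0.0173). For these 3 genes the exonic lengths were 2.04 to 5.79 times apart, the cattle model being the longer. Members of similar length were MBP, MYRF, TF and ENPP2, and none was called. MBP, myelin basic protein, had 3845, 4214 and 2085 CPM in cattle and 3757, 3543 and 5783 CPM in sheep (-0.37 ± 0.36, adjusted p = 0.523), with overlapping groups.

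Of 10 astrocyte markers 6 had a positive difference and 1 was called, in sheep, with a median of 0.26 (-0.04 without sheep C). The call was ALDH1L1, a folate enzyme, on models 2.08 times apart in length. It had 120.2, 145 and 169.7 CPM in sheep and 51.6, 43.7 and 31.2 CPM in cattle (-1.78 ± 0.31, adjusted p = 0.0163). GFAP, the astrocyte filament protein, missed the threshold (-1.18 ± 0.36, adjusted p = 0.0785) and was called higher in sheep without sheep C (-1.41). Its models were 1.95 times apart in length. Of 12 endothelial and barrier genes 7 had a positive difference, with a median of 0.16 (-0.01 without sheep C). ABCG2, an efflux transporter with models 2.23 times apart in length, was called higher in sheep (-1.47 ± 0.26, adjusted p = 0.018). VWF, of similar length in both models, was called there without sheep C (-1.31). Genes of fibroblasts and meninges had 2 of 11 called, both in sheep, where 8.68% of all genes were called. COL1A2, a chain of type I collagen, had 129, 32.5 and 77.2 CPM in sheep and 14.1, 21.6 and 11.038 CPM in cattle (-2.35 ± 0.56, adjusted p = 0.0403). MGP, matrix Gla protein, was the other (-3.52 ± 0.52, adjusted p = 0.0112), on models 1.405 times apart in length. COL1A2 also differed widely among the sheep libraries, and the summed level of the list was 331, 375 and 277 CPM in cattle and 654, 394 and 559.5 CPM in sheep. The part of meningeal cells in other results was not tested. None of 4 microglial markers tested was called.

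Of 9 hypoxia-induced genes tested, 8 had a positive difference, 2 were called in cattle and 0 in sheep, against 4.64% and 8.68% of all genes, with a median of 0.98. Without sheep C 4 were called in cattle, against 9.7% of all genes, with a median of 0.83. Only 1 of the 9 had lengths within 1.2 times. It was the 1 below 0 (-0.71, and 0.83 without sheep C) and was not called. PDK1 and VEGFA lay outside that limit. PDK1, a kinase that inhibits pyruvate dehydrogenase, had 54.3, 53.9 and 50.2 CPM in cattle and 11.04, 10.4 and 5.61 CPM in sheep (2.55 ± 0.35, adjusted p = 0.00871). VEGFA, the vascular growth factor, had 136, 98.1 and 119 and 46.7, 36.7 and 22.5 CPM (1.74 ± 0.35, adjusted p = 0.0255). The cattle libraries were tightly grouped for PDK1 and every one was above every sheep library for both. In muscle PDK1 differed by 1.53 ± 0.31 and VEGFA by -2.06 ± 0.30. BNIP3 and ADM were called in cattle without sheep C, and BNIP3 turned to -0.574 without the length correction.

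Of 10 antigen presentation genes 3 were called, all in sheep, where 8.68% of all genes were called, with a median of -0.77. Without sheep C 2 were called in cattle and 3 in sheep, against 9.7% and 13.3% of all genes, with a median of -0.14. TAP1, the peptide transporter of class I presentation, had 32.7, 30.2 and 66.4 CPM in sheep and 9.43, 9.26 and 5.95 CPM in cattle (-2.39 ± 0.43, adjusted p = 0.0188). NLRC5, the transactivator of class I genes, had 6.49, 4.45 and 8.97 and 2.63, 2.14 and 1.61 CPM (-1.64 ± 0.41, adjusted p = 0.0449). Both have models of similar length, and their groups did not overlap, as for every called gene. BOLA-DMB, a class II peptide editor, was the third (-2.06 ± 0.29, adjusted p = 0.00936). Its models were more than 1.2 times apart in length. Without sheep C, BOLA-DRA and CIITA, the class II chain and its transactivator, were called higher in cattle (1.08 and 1.2).

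Among genes of proteins tied to neurodegeneration, SOD1, the cytosolic superoxide dismutase, was higher in sheep. It is of similar length in both models and had 217, 234 and 226 CPM in cattle and 466, 449.5 and 573 CPM in sheep (-1.14 ± 0.24, adjusted p = 0.0275). The groups did not overlap, as for every called gene. Without sheep C, LRRK2 and PARK7 were called higher in cattle (1.12 and 1.0). APP, the amyloid precursor, was at 2474, 2425 and 2401 CPM in cattle and 2879, 2288 and 1276 CPM in sheep and was not called (0.18 ± 0.33, adjusted p = 0.74).

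Muscle of the same 2 species was used to ask whether the difference of a named gene was of the same size in another tissue, on the same gene models. Of the 24 named genes 21 had at least 1 CPM over the muscle libraries, 20 of them with the same sign as in brain and 15 both with the same sign and called in muscle, where 29.4% of 12553 genes were called in either direction, 12.9% higher in cattle and 16.5% higher in sheep. The interaction of species and tissue passed the threshold for 10, against 18.1% of all genes with 1 CPM or more in muscle. MYOM1 was 2919 CPM in cattle and 1914 CPM in sheep muscle, a difference of 0.61 ± 0.21, so the brain difference was larger by 2.82 ± 0.30 (adjusted p = 0.000246). MYBPC2, another thick filament protein, was at 10192 and 11658 CPM in muscle (-0.19 ± 0.54), with an interaction of -3.74 ± 0.80 (adjusted p = 0.00974). In brain the former was higher in cattle and the latter in sheep.

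TMEM35A changed sign, with 3.14 CPM in cattle and 7.26 CPM in sheep muscle (-1.21 ± 0.37, interaction 3.29 ± 0.52, adjusted p = 0.00243). MAP3K15 was further apart in muscle than in brain, with 272 CPM in sheep and 0.116 CPM in cattle muscle (interaction 5.2 ± 0.54, adjusted p = 0.000257). UBQLN2 was also further apart there (8.69 ± 0.29). AFF1 and MCC did not pass in muscle (0.27 ± 0.51 and 0.44 ± 0.35, adjusted p = 0.719 and 0.36) and had interactions of 2.54 ± 0.73 and 2.15 ± 0.50. By contrast METTL17 and CDK8 had muscle differences of 2.38 ± 0.24 and 2.55 ± 0.37, close to those in brain, and their interactions were 0.20 ± 0.32 and -0.12 ± 0.50 (adjusted p = 0.701 and 0.907). DNMT3B and CDT1 were higher in sheep in both tissues (-3.89 ± 0.40 and -2.70 ± 0.37 in muscle).

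**Figure D5:**
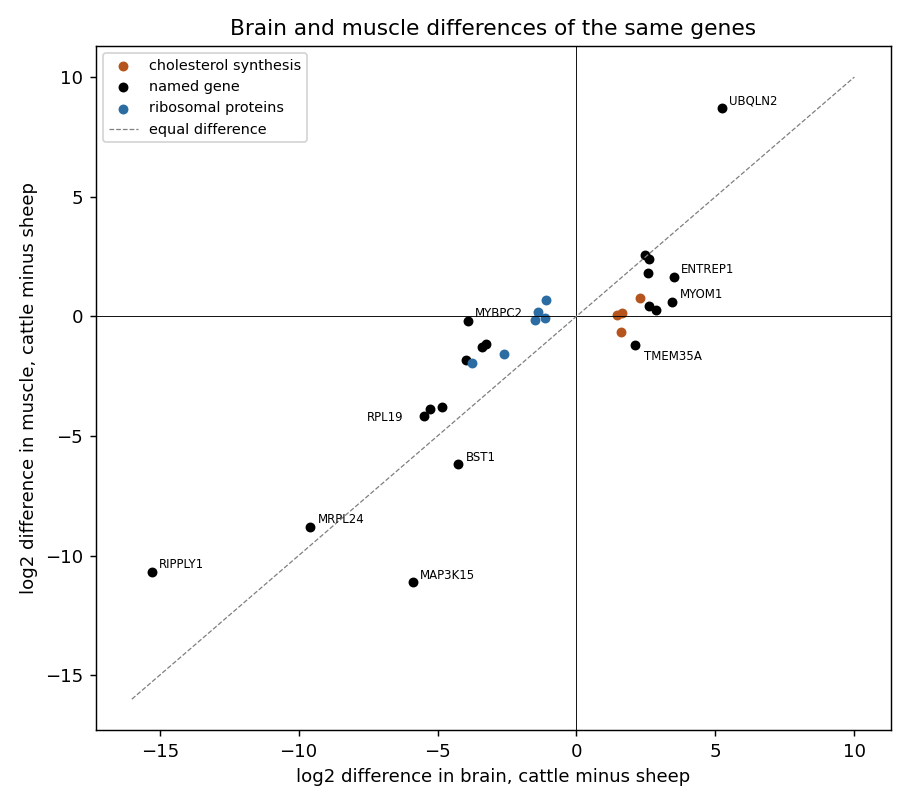
Log2 difference, cattle minus sheep, in brain (x axis) against muscle (y axis) for 20 named genes with at least 1 CPM over muscle (AVPI1, at 0 in all sheep libraries, is not drawn) and for called cholesterol synthesis and ribosomal protein genes. Points on the dashed line have the same difference in both tissues, and the 4 sterol genes drawn lie below it, between -0.64 and 0.75 in muscle. RIPPLY1, furthest to the left, has 0 reads in cattle brain and its fitted value there is no bound.

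Goat brain gives another level for 21 of the 24 named genes, on a scale set over the 9 brain libraries and with no test. These values share the cattle and sheep libraries used to choose the genes. The goat mean was nearer to sheep on the log2 scale for 10 of the 11 cattle-high genes with a goat partner and nearer to cattle for 1. AVPI1, among the 10, was at 0 in both goat and sheep. For sheep-high genes the goat mean was nearer to sheep for 5 and to cattle for 5. How often goat lies nearer to sheep over all genes was not counted, so these counts are not read as a result. ENTREP1 stood at 34.8 CPM in cattle, 3.15 in sheep and 3.05, 4.18 and 3.93 in goat A, B and C. DNMT3B stood at 1.79 CPM in cattle, 71.2 in sheep and 2.26, 2.86 and 2.3 in goat. CDT1 was likewise low in goat, at 7.74, 4.53 and 13.6 CPM, and RPL19 high, at 1208, 974 and 1229 CPM. On these means goat lay with sheep for ENTREP1 and RPL19 and with cattle for DNMT3B and CDT1. Of these genes only ENTREP1 had goat and cattle models within 1.2 times in length. For DNMT3B, CDT1 and RPL19 they were 1.445, 1.33 and 1.59 times apart, and for GABRA3 2.68 times.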

How the data were processed

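Brain RNA of adult cattle and sheep was measured by RNA sequencing, with 3 libraries per species. Counts per gene, with exon coordinates and summed exonic length, were deposited by the authors, and per the submitters' processing notes reads were trimmed with Trimmomatic 0.39, aligned with STAR 2.7.6 and counted with featureCounts, on ARS-UCD1.2 for cattle. For the sheep build, strand setting and treatment of multi-mapping reads, the sources used here give nothing.

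Genes were paired between the species by shared exon lengths (9988 pairs). Of these the 9918 in gene order (99.3%) were kept, and 4188 were added between paired neighbours. Symbols were given to 20211 of 27607 cattle genes by position in the RefSeq gene table of assembly ARS-UCD2.0, used only for names, and placeholder symbols were treated as unnamed. Counts were filtered on low values and fitted as deposited, with exonic length and TMM scaling in the offset, with edgeR 4.0.16 (R 4.3.3) by the quasi-likelihood test, with p-values adjusted by Benjamini-Hochberg over all genes tested. Standard errors are the log2 difference divided by the square root of the test's F. A call needs an adjusted p below 0.05 and a 2-fold difference. The interaction of species and tissue was fitted over 12 libraries. Alternatives used limma 3.58.1, DESeq2 1.42.0, other scalings, filters, pairings and lengths, and each library left out. The scripts were tested on simulated data. Depth was 25162316 to 58514630 counts per library, and no library pair agreed within counting noise.

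Named genes were the 12 per direction with the largest fold among named, called genes of similar length with a log2 level of at least 5, separated groups and a call without sheep C, and up to 5 called members of each gene list by adjusted p. Further list members are named to complete a count, or as not called, and were chosen after their values were seen. The interaction was read for called cholesterol and ribosomal genes after their values were seen. The comparison, the named genes and the lists were chosen with earlier results of these data known. Some genes are counted in the lists and not reported here by name.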

Additional observations from a re-analysis of the deposited data

Results flagged for a closer look

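For 19 genes the log2 difference between cattle and sheep in brain differed from that in muscle by the test of the interaction (adjusted p below 0.05, edgeR). Of these, 10 were among the 24 genes with large brain differences. Brain minus muscle was -3.48 for UBQLN2, 1.82 for ENTREP1, 2.82 for MYOM1, 2.54 for AFF1, 2.15 for MCC and 3.29 for TMEM35A. On the sheep-high side it was 5.2 for MAP3K15, -2.14 for PIDD1, -3.74 for MYBPC2 and -2.16 for SIGIRR. Among called ribosomal protein genes it was -1.11 for RPL4, -1.79 for RPL5, -1.39 for RPL7, -1.85 for RPS14 and -1.62 for RPS4X. Among called cholesterol synthesis genes it was 1.52 for DHCR7, 1.38 for IDI1, 1.49 for LSS and 2.21 for SQLE. The positive values on cattle-high genes mean a larger excess of cattle in brain, and the negative values on sheep-high genes a larger excess of sheep in brain. UBQLN2 and MAP3K15 are the exceptions, being further apart in muscle. All 19 also passed the threshold, with the same sign, without sheep brain C. Genes chosen because they were called in brain favour a larger difference there, and the share of all genes past this threshold was 18.1%.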

How the results depend on the processing

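Other scalings left the median log2 difference of all genes between -0.028 and 0.048 and the counts within 1.5 times of those reported. Called genes higher in cattle and in sheep numbered 1026 and 1832 by DESeq2 (346 and 452 within 1.2 times in length) and 1043 and 2085 with 12 libraries in the fit (353 and 528). They numbered 325 and 612 without the pairs added between paired neighbours (103 and 152). Without length correction the counts within 1.2 times were 98 and 410, and with a stricter limit on lengths, 49 and 115. With 1 library left out they ranged from 114 to 1195 for cattle and from 139 to 1641 for sheep, and within 1.2 times from 25 to 417 and from 36 to 387. The highest counts were those without sheep C and the lowest those without a cattle library. The library letters did not pair the samples (r of same-letter deviations 0.13, -0.10 and 0.01), and with the letter as a replicate block the counts were 89 and 185 (25 and 54), with 10 of the 24 named genes losing the call. For the 24 named genes, 380 alternative values kept the call, 64 kept only the direction and 0 turned it. The interaction passed for 12 rather than 10 named genes without sheep C. Signs turned without length correction for VIP (0.16), UGT8 (0.54), GRIA4 (-0.069), CPLX1 (1.08), KCNC4 (0.14), HSP90AA1 (0.09), BNIP3 (-0.57) and SDHB (-0.059). They also turned for UGT8 and LHFPL3 under limma-voom (0.50 and 0.14) and the replicate block (0.232 and 0.071), for LHFPL3 without sheep A (0.064, against -1.012 without sheep C), and without sheep A or B for IFI6 (-0.101 and -0.058, against 1.351 without sheep C) and IRF7 (-0.058 and -0.094, against 1.131 without sheep C). Apart from the length correction, and the fewer genes or libraries by construction, the cause was not tested.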

Other observations

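Of the brain region lists, forebrain cortex genes had 0 of 13 called in either direction, where 13.3% of all genes were called. Their median was 0.47, with all 13 above 0. Without sheep C LHX2 and NPTX1 were higher in cattle (1.77 and 1.23), on models 1.29 and 1.56 times apart in length. Of 7 striatal and dopamine signalling genes GNAL, the G-protein subunit of striatal and olfactory receptors, was higher in cattle, at 144, 144 and 238 CPM against 74.0, 40.5 and 70.3 CPM (1.51 ± 0.36, adjusted p = 0.0414, edgeR). The GNAL models were 1.35 times apart in length. Of 7 midbrain and monoamine genes DDC, aromatic amino acid decarboxylase, and SLC18A2, the vesicular monoamine transporter, were higher in cattle. None of the 7 had models within 1.2 times in length. DDC had 29.9, 38.1 and 14.4 CPM in cattle and 2.88, 4.99 and 6.37 CPM in sheep (2.53 ± 0.50, adjusted p = 0.0245), and SLC18A2 had 6.32, 7.64 and 6.57 and 1.02, 0.79 and 2.43 CPM (2.28 ± 0.50, adjusted p = 0.0327). TH, the first enzyme of dopamine synthesis, was called in cattle only without sheep C (2.0), having 1.15, 1.37 and 7.71 CPM in sheep A, B and C. Hippocampal (0 of 5) and thalamic (0 of 6) genes had no call. FAT2, a cadherin of cerebellar granule cells with nearly equal model lengths, was higher in cattle, at 1.12, 1.61 and 1.70 CPM against 0.231, 0.564 and 0.375 CPM (1.90 ± 0.48, adjusted p = 0.045). Of 3 hypothalamic genes GAL, the precursor of the neuropeptide galanin, had 0.768, 0.614 and 1.15 CPM in cattle and no read in any sheep library (adjusted p = 0.0181), on models 2.53 times apart in length. AVP, the vasopressin precursor, was higher in sheep (-2.32 ± 0.47, adjusted p = 0.0255), as was TAC3, the neurokinin B precursor (-2.95 ± 0.65, adjusted p = 0.0325). The models of AVP and of TAC3 were each more than 1.2 times apart in length. Of 4 choroid plexus genes SLC4A5, a bicarbonate transporter, was higher in cattle (3.21 ± 0.54, adjusted p = 0.0163). KCNJ13, a potassium channel whose pair rests on 1 shared exon length, was higher in sheep (-1.94 ± 0.38, adjusted p = 0.0225). Its models were 1.69 times apart in length. The dissected region is not stated, and its part in these differences was not tested.

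Of 23 proteasome genes and 16 nuclear genes of the respiratory chain 0 were called in either direction, with medians of -0.44 and -0.25, and -0.07 and -0.08 without sheep C, where SDHB was called higher in cattle (1.29). Its sign turned without the length correction, to -0.059. Interferon response genes had 1 of 14 called each way: OAS2, an antiviral RNA sensor, in cattle (1.78 ± 0.43, adjusted p = 0.0394, edgeR) and IRF1, an interferon regulatory factor, in sheep (-1.79 ± 0.42, adjusted p = 0.0387). BAG3, a co-chaperone of selective autophagy, was the called member of 8 heat shock genes, with 104, 112 and 65.7 CPM in cattle and 32.9, 30.4 and 23.7 CPM in sheep (1.69 ± 0.32, adjusted p = 0.0213). C1S, a complement protease, was the called member of 9 complement genes, with 19.0, 53.9 and 76.7 CPM in sheep and 9.48, 11.9 and 10.2 CPM in cattle (-2.25 ± 0.53, adjusted p = 0.0381). Of 9 immediate early genes 0 were called, and NR4A1 ran from 51.9 CPM in sheep A to 451 CPM in sheep C. Of 9 clock genes 0 were called. Over all lists 53 of 447 members tested were called, against 13.3% of all genes, and NEUROD2, MOG, CFAP126, TPI1, RPL19 and RPS14 were the 6 called whichever library was left out. Of these 6 only RPL19 had models within 1.2 times in length.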
